A study of Mus musculus with 6 samples.

Results

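Complex I genes were taken from the Sol transcriptome by symbol. Every symbol that starts with Nduf, followed by a, b, c, s or v and a digit, was kept, together with Ndufab1, while the assembly factors (Ndufaf) were left out. This gave 38 of the 24411 genes listed. Of these, 36 encode structural subunits of complex I. Ndufa4, which is now placed in complex IV, and its paralog Ndufa4l2 carry such symbols by history and are described separately. RNA was measured by poly(A) RNA sequencing in the soleus (Sol), a slow-twitch fiber-dominant leg muscle, of 3 WT and 3 LSD1-mKO mice after voluntary wheel running (VWR), with 1 library per mouse. LSD1-mKO mice carried Lsd1-floxed alleles and a CreERT2 recombinase driven by the human ACTA1 promoter, which is active in differentiating and differentiated muscle cells, so that other cells of the muscle keep LSD1. WT mice carried the same floxed alleles without CreERT2. All 6 mice were C57BL/6, were 8 weeks old when they were single-housed with a wheel, were given tamoxifen (75 mg/kg on each of 5 days) once 3 days of wheel familiarization had passed, with 38 days on the wheel in all. The series holds no sedentary mice.

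Complex I is the first and largest enzyme of the mitochondrial respiratory chain. Its matrix arm takes electrons from NADH and passes them along flavin and iron-sulfur clusters to ubiquinone, and its membrane arm pumps protons. The core subunits catalyse these steps and are encoded in part by nuclear and in part by mitochondrial DNA, while the accessory subunits surround the core and are needed for assembly and stability. In slow and oxidative muscle fibers complex I is abundant, and its subunit genes are known targets of the nuclear respiratory factors and of the estrogen-related receptors (ERRs). The study follows one of these, ERRγ (Esrrg), after VWR. The question for the complex I genes was whether they differed between the genotypes in trained Sol, and which of them.

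No complex I gene was called different between the genotypes, although Ndufv2 and Ndufb4 did not overlap between them, as described below. With edgeR's quasi-likelihood test and Benjamini-Hochberg adjustment over the 12828 genes tested, 0 of the 38 genes passed an adjusted p of 0.05. Among all genes tested 0.0156% passed, which are Kdm1a and Esr1, so 0 of 38 is near the background share. The paper's strain name for the CreERT2 line, carried only by LSD1-mKO mice, includes Esr1. Whether its transcript adds to the Esr1 counts was not tested. At an unadjusted p under 0.05, 0 of the 38 were called, against 6.4% of all genes tested, and DESeq2 and limma voom also called 0 of the 38. All 38 had passed the filter on low counts. The fitted differences were small, from 0.927-fold for Ndufa2 to 1.10-fold for Ndufs5 in LSD1-mKO relative to WT. The 95% interval of every one of the 38 genes lay inside a 1.5-fold difference in either direction, the outermost bounds being 0.783-fold for Ndufa2 and 1.3-fold for Ndufa10. The p-values measure only the spread between these mice. In whole muscle, fewer cells of a type and less RNA per cell cannot be told apart.

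The libraries held 8940206 to 13798059 estimated counts, of which the 38 genes took between 1.01% and 1.09%. The 36 complex I genes had 504 to 10938 counts per library, and Ndufa4l2 as few as 103. Kdm1a, which encodes LSD1, had 40.5, 38.2 and 33.6 CPM (counts scaled to a common library size, with TMM factors) in WT 1 to 3 and 14.6, 16.6 and 16.6 in LSD1-mKO 1 to 3, in the direction of the labels. Genes of slow and oxidative fibers, among them Myh2 of type IIA fibers, were abundant in every library, at a summed 60008 to 79809 CPM. WT 1 differed from WT 2 and 3 in its markers of some other cells. Its fibroblast markers summed to 943 CPM against 2593 and 3054 in WT 2 and 3, which was near the 1096 and 1187 CPM of LSD1-mKO 2 and 3 and below the 2033 CPM of LSD1-mKO 1. The counts of complex I genes below are therefore also given without WT 1. Leaving out WT 2 or WT 3 instead moved the count over the 38 genes the other way, as given below. For the subunit groups, the assembly factors and the other complexes only the fit without WT 1 is given.

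As background to the values, the 250 bases before the RefSeq start of transcription (assembly GRCm38.p6) are shown for Ndufv2 and Ndufs5, the pair with the smallest unadjusted p-values, with matches to any of 4 motifs in capitals. They were read 5′ to 3′ on the strand of the gene, which for both is the minus strand. The Ndufv2 window lies at chr17:66101560-66101809 and holds no match. The Ndufs5 window lies at chr4:123718187-123718436 and holds 1 NRF-1 match.
Ndufv2: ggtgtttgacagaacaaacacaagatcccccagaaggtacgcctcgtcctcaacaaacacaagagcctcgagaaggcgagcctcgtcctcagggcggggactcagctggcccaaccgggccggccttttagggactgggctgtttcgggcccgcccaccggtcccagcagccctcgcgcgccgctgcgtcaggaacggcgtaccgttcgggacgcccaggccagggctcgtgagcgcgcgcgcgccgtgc
Ndufs5: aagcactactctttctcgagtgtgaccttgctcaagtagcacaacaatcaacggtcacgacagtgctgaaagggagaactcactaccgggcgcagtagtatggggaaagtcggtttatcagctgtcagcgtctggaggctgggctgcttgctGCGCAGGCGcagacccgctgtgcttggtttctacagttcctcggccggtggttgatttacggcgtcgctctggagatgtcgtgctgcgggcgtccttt

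The motifs searched, on both strands, in the windows from 250 bases before to 50 bases after the start were TNAAGGTCA for the ERR element, GCGCANGCG for NRF-1, CCGGAAGT for GABP and other ETS factors, and AANATGGCG for YY1. RefSeq windows were matched for 33 of the 38 genes, which have 35 windows. NRF-1 matches were in 9 of the 35 windows (25.7%), from 8 genes, against 6.25% of all 32851 windows, and the genes were Ndufa5, Ndufa6, Ndufa8, Ndufa11, Ndufb4, Ndufb10, Ndufs5 and Ndufs6. The windows of Ndufa5 overlap and share a single site, which is counted in each of them. YY1 matches were in 7 windows (20%) against 2.38% of all windows. The ERR element was in 1 window (2.86%) against 1.28%, and the GABP motif, in Ndufs3, in 1 window against 3.89%. A match describes the letters in a window and is no evidence that a factor binds there, and a window without one says nothing about the factor.

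Ndufb4, on the minus strand of chromosome 16, held the only ERR element among these windows, from base -57 to base -49 with 0 as the first transcribed base of the RefSeq transcript. In GENCODE, which has a longer transcript, this site falls in the 5′ untranslated part of exon 1. The same window held 3 NRF-1 matches, of which the nearest to the start is shown beside the ERR element, with 8 bases on each side and the motif in capitals.
Ndufb4 ERR element, chr16:37654409-37654433: cctgagccTGAAGGTCAgactcgag
Ndufb4 NRF-1, chr16:37654374-37654398: tcatatccGCGCAGGCGcagatgtg

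Most YY1 matches sat at a shared place, while those of Ndufa7 (from base -18) and Ndufb11 (from base -211) lay before the start. All 7 were on the strand of the gene, 5 of them began and ended between base 22 and base 43 after the start, and 6 covered an annotated start codon, so that the ATG of the motif is in those genes also the first codon of the protein. Examples from a core and an accessory subunit are shown with the motif in capitals.
Ndufs7, chr10:80249465-80249489: ccgaggccAAGATGGCGgcgctggc
Ndufa9, chr6:126849099-126849123: tgtgggagAAGATGGCGgccgccgt
The letters of the motif and of the start of the coding sequence are thus the same letters in these genes. How often YY1 matches cover a start codon over all windows was not counted.

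Levels were first compared between genes, which needs a scale per transcript length (TPM, using each gene's longest coding transcript in GENCODE). Over the 6 mice, the 36 complex I genes ranged from 71.9 ± 1.80 TPM (SD, n = 6) for Ndufb2 to 1762 ± 70.7 TPM for Ndufb9, both accessory subunits of the distal membrane arm. Ndufb10 stood at 1051 ± 36.4 TPM. Ndufb5 (901 ± 27.8 TPM), Ndufa6 (893 ± 18.4 TPM) and Ndufb11 (872 ± 46.0 TPM) were lower and did not differ beyond their spread. Ndufv3 (197 ± 4.75 TPM) and Ndufs5 (203 ± 18.3 TPM) were likewise indistinguishable near the lower end. Ndufab1, the mitochondrial acyl carrier protein, stood at 118 ± 6.08 TPM.

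Part of the order depends on the transcript chosen. For Ndufb2 and Ndufab1 the principal transcript has the same length as the longest (4371 and 3479 bases), so it could not move them. With the median length of a gene's coding transcripts, Ndufb2 was at 83.2 TPM and Ndufab1 at 266 TPM. Ndufb8 moved from 406 ± 18.8 TPM with its longest transcript (2142 bases) to 1229 ± 57.4 TPM with its principal one (680 bases). The top of the range moved too. Ndufs1 stood at 542 TPM by longest transcript but at 1416 TPM by median length, where Ndufb9 was at 1126 TPM. Outside complex I, Ndufa4 had the highest level of the 38, 2250 ± 82.9 TPM, above Ndufb9 in each of the 6 mice, and Ndufa4l2 the lowest, 34.1 ± 5.22 TPM.

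**Figure D1:**
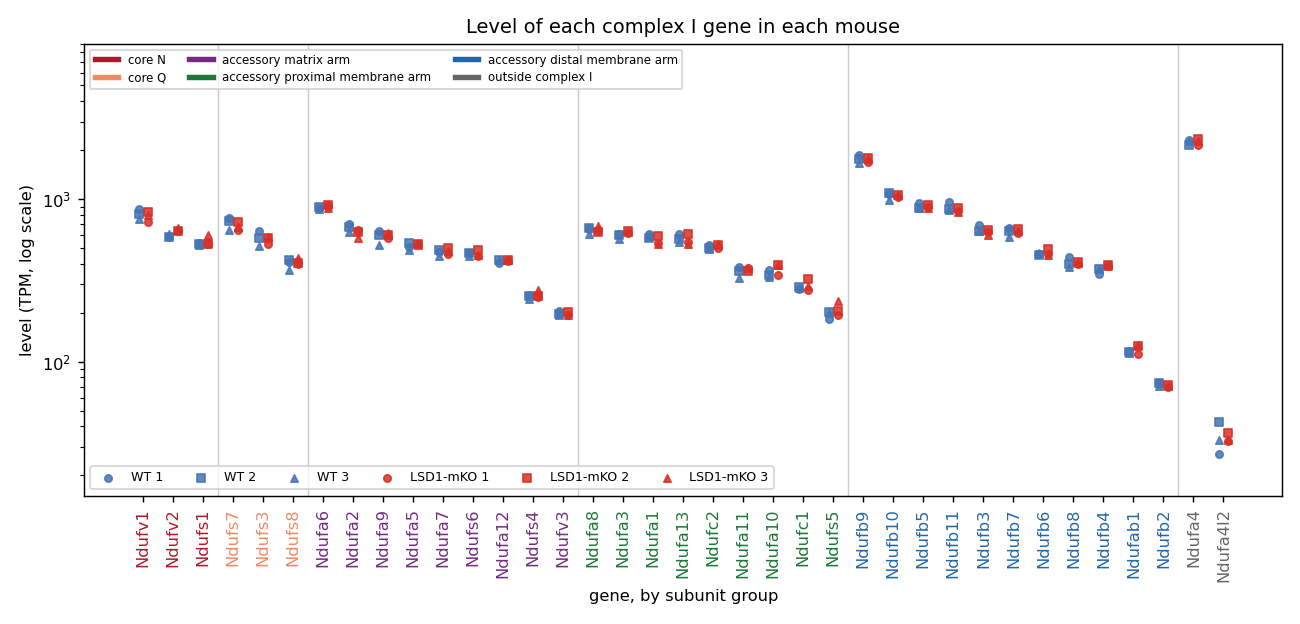
Level of 37 of the 38 genes in each of the 6 mice, in TPM on a log scale, grouped by place in complex I (blue WT, red LSD1-mKO, 1 point per mouse). Within a gene the points of both genotypes lie close together, while the genes span 71.9 to 1762 TPM inside complex I, with Ndufa4 above and Ndufa4l2 below that range.

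The NADH-oxidising end of the matrix arm holds 3 nuclear-encoded core subunits. Ndufv1, which binds NADH and the flavin, had 708, 562 and 553 CPM in WT 1 to 3 and 549, 622 and 595 CPM in LSD1-mKO 1 to 3. WT 1 was the highest and the other 5 mice overlapped. The log2 fold change of LSD1-mKO over WT was -0.05 (SE 0.12).

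Ndufv2, which carries an iron-sulfur cluster and pairs with Ndufv1, had 485, 420 and 460 CPM in WT and 494, 490 and 506 CPM in LSD1-mKO. The lowest LSD1-mKO mouse lay just above WT 1, the highest WT mouse, and the genotypes did not overlap. The log2 fold change was 0.13 (SE 0.09, 95% interval -0.08 to 0.34), with an edgeR Benjamini-Hochberg adjusted p of 0.814 and an exact two-sided permutation p of 0.1, the smallest that 3 against 3 mice allow.

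Ndufs1, the largest subunit of the matrix arm, had 699, 590 and 620 CPM in WT and 645, 642 and 723 CPM in LSD1-mKO. WT 1 and LSD1-mKO 3 were both high, and the genotypes overlapped, with a log2 fold change of 0.07 (SE 0.11). Its estimated counts were not whole numbers in any of the 6 libraries, so its value is less certain than that of genes counted in whole reads.

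The ubiquinone-binding part of the matrix arm holds further core subunits, among them Ndufs7, Ndufs3 and Ndufs8. Ndufs7, which carries the last iron-sulfur cluster before ubiquinone, had 367, 302 and 280 CPM in WT and 288, 321 and 301 CPM in LSD1-mKO, which gave a log2 fold change of -0.06 (SE 0.12).

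Ndufs3 had 326, 255 and 240 CPM in WT and 252, 274 and 276 CPM in LSD1-mKO, with a log2 fold change of -0.03 (SE 0.12). Ndufs8, another carrier of iron-sulfur clusters, had 203, 178 and 164 CPM in WT and 183, 184 and 197 CPM in LSD1-mKO, with a log2 fold change of 0.05 (SE 0.10). For Ndufs7, Ndufs3 and Ndufs8 WT 1 was the highest of all 6 mice. Without WT 1, Ndufv1, Ndufs3 and Ndufs7 changed sign, to 0.08, 0.11 and 0.06 on the log2 scale.

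The 9 accessory subunits of the matrix arm had a median log2 fold change of 0.04, with 7 above and 2 below 0. Without WT 1 the median was 0.11, with 8 of 9 above 0. The lowest of the 38 was among them. Ndufa2, a small subunit with a thioredoxin-like fold, had 196, 161 and 159 CPM in WT and 168, 162 and 149 CPM in LSD1-mKO. WT 1 was high and LSD1-mKO 3 low, and the other 4 mice lay between 159 and 168 CPM, with a log2 fold change of -0.11 (SE 0.11). Without WT 1 it was close to 0 (-0.0018).

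Ndufa6 and Ndufa5 are 2 of the 5 complex I genes, with Ndufa3, Ndufb4 and Ndufv2, that the study placed in its cluster of genes higher in LSD1-mKO. That cluster was chosen on these same mice, so their direction here is not independent evidence. Ndufa6, a LYR-motif subunit that binds the acyl carrier protein, had 256, 221 and 228 CPM in WT and 244, 246 and 236 CPM in LSD1-mKO, for a log2 fold change of 0.05 (SE 0.09). Ndufa5 had 216, 197 and 190 CPM in WT and 211, 211 and 206 CPM in LSD1-mKO, for a log2 fold change of 0.06 (SE 0.08). In both genes WT 1 was above and WT 2 and 3 were below all 3 LSD1-mKO mice.

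In the proximal membrane arm, next to the matrix arm, 7 of 9 accessory genes were above and 2 below 0, with a median of 0.06. Without WT 1, 8 of 9 were above 0, with a median of 0.13. Ndufs5, which faces the intermembrane space, had the largest fitted difference of all, 0.13 (SE 0.09), from 60.8, 57.9 and 60.2 CPM in WT and 60.4, 62.9 and 72.8 CPM in LSD1-mKO. LSD1-mKO 3 alone stood above the rest, and without it the log2 fold change was 0.05. The adjusted p in edgeR with Benjamini-Hochberg adjustment was 0.814. The estimated counts of Ndufs5 were not whole in any library and RefSeq lists a pseudogene of it, so its value is uncertain.

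Ndufa10, a subunit related to nucleoside kinases, had 360, 291 and 299 CPM in WT and 313, 362 and 359 CPM in LSD1-mKO. WT 1 stood with the upper LSD1-mKO mice, and the log2 fold change was 0.12 (SE 0.11). Ndufa3 had 155, 130 and 130 CPM in WT and 146, 148 and 145 CPM in LSD1-mKO, so that WT 1 was again above and WT 2 and 3 below every LSD1-mKO mouse. Its log2 fold change was 0.08 (SE 0.09).

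In the distal membrane arm, 7 of the 11 accessory genes were above and 4 below 0, with a median of 0.0049. Ndufab1 was counted in this arm only, although Ndufa6 of the matrix arm binds the acyl carrier protein that it encodes. Without WT 1, 11 of 11 were above 0, with a median of 0.10. Ndufb4 had 165, 152 and 161 CPM in WT and 171, 172 and 170 CPM in LSD1-mKO. The LSD1-mKO mice lay close to each other and above every WT mouse. The log2 fold change was 0.10 (SE 0.08, 95% interval -0.07 to 0.28), the edgeR Benjamini-Hochberg adjusted p was 0.824 and the exact permutation p was 0.1. RefSeq lists genes named Ndufb4b and Ndufb4c elsewhere in the genome, and the estimated count of Ndufb4 was not whole in 1 library. Ndufb11 (-0.07) and Ndufb3 (-0.06) had the lowest fitted values of this arm and Ndufb9 was at -0.0053.

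Ndufa4 had 692, 553 and 616 CPM in WT and 596, 644 and 629 CPM in LSD1-mKO, for a log2 fold change of 0.0068 (SE 0.11). Ndufa4l2, known as a hypoxia-inducible gene, had 12.4, 16.8 and 13.7 CPM in WT and 13.8, 15.4 and 13.9 CPM in LSD1-mKO, for a log2 fold change of 0.00043 (SE 0.14). Neither gene had a sign that held across scalings: with library size alone Ndufa4 was at -0.0090 and Ndufa4l2 at -0.03. WT 1 had the highest Ndufa4 and the lowest Ndufa4l2 of the 6 mice.

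**Figure D2:**
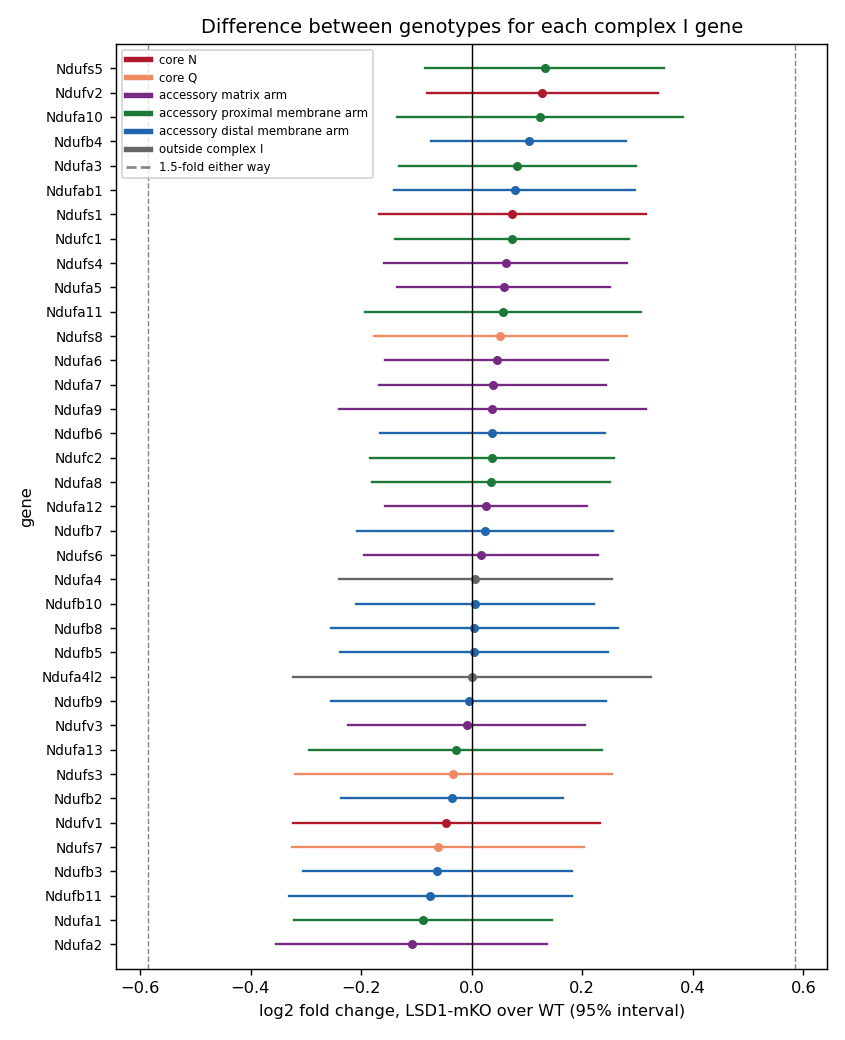
Fitted log2 fold change of 37 of the 38 genes, LSD1-mKO over WT, with its 95% interval from edgeR, coloured by place in complex I. Every interval drawn crosses 0 and stays inside the dashed lines at 1.5-fold, and the points run from -0.11 for Ndufa2 to 0.13 for Ndufs5.

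Across the 38 genes, 27 were above and 11 below 0 (71.1% above), while 45.2% of all genes tested were above 0, and the medians were 0.03 and -0.02 on the log2 scale. In 33 of the 38 the fitted difference was smaller than its own SE, which ran from 0.08 to 0.14. The genotypes did not overlap for 2 genes higher in LSD1-mKO, Ndufv2 and Ndufb4, against 6.63% of all genes tested, and for 0 genes lower in LSD1-mKO, against 6.1%. The first share is close to the background.

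These counts rested on single WT mice and in part on the scaling. Without WT 1, 35 of the 38 genes were above 0, against 47.4% of all genes tested, and 25 did not overlap in the higher direction, against 15.9%. Ndufa10 alone was then at an unadjusted p under 0.05, against 14.4% of all genes, with a log2 fold change of 0.23 and an edgeR Benjamini-Hochberg adjusted p of 0.326, the lowest of the 38. Without WT 2, 17 genes were above 0, with a median of -0.0153, beside -0.00878 over all genes tested. Without WT 3, 15 were above 0, with a median of -0.018, beside -0.0163. The median moved from 0.11 without WT 1 to -0.02 without WT 3. With each of the 6 mice left out in turn, 0 of the 38 passed an adjusted p of 0.05. Scaled by library size alone, with all 6 mice, 21 of the 38 genes were above 0. Their median was then 0.01, beside -0.04 over all genes tested. The share of all genes above 0 was not counted without WT 2, without WT 3 or with library size alone.

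The complex I genes varied together between mice. WT 1 had the highest CPM of the 6 mice for 30 of the 38 genes, WT 2 the lowest for 20 and WT 3 the lowest for 13. The correlation of a gene's log2 CPM with the summed level of the others, over the 6 mice, had a median of 0.88, and was 0.30 for Ndufs5, 0.52 for Ndufb4 and 0.58 for Ndufv2. Ndufa4l2 was the only one below 0, at -0.61. These correlations describe 6 libraries whose shared scaling and cell content enter every point. No value over all genes tested stands beside them or the counts, so neither is shown to be particular to complex I. The summed CPM of complexes II, III, IV and V in WT 1 was at 121%, 121%, 117% and 123% of the mean of WT 2 and 3.

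**Figure D3:**
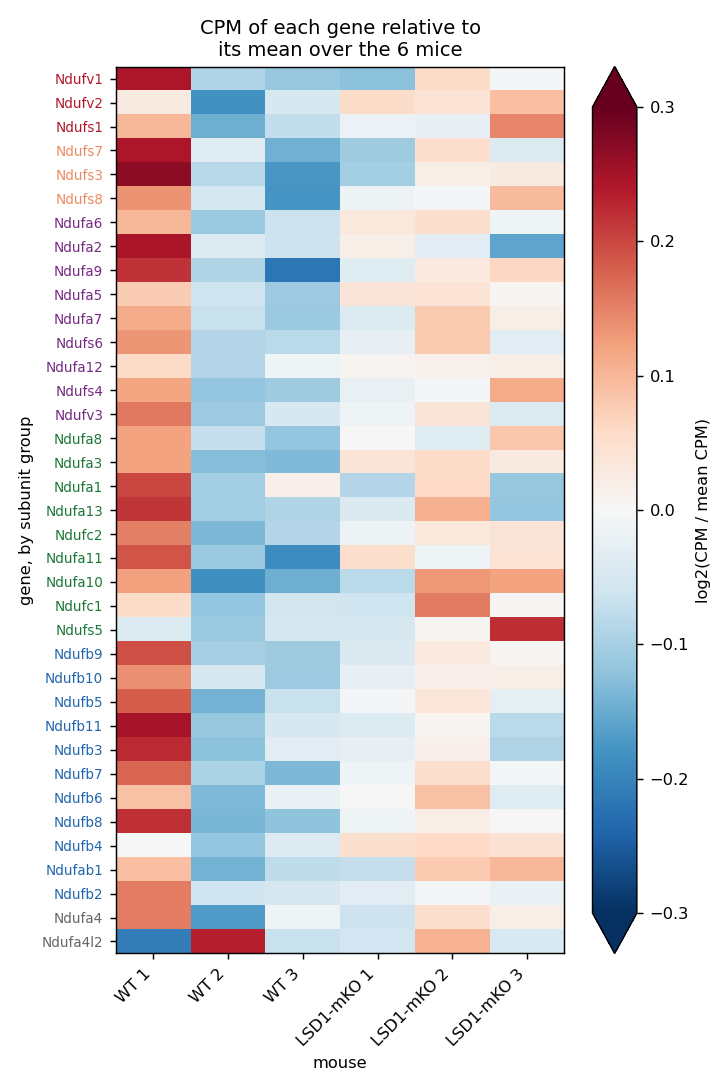
Level of 37 of the 38 genes in each mouse relative to its mean over the 6 mice, as log2 of the ratio of CPM (red above, blue below the mean, colour scale from -0.3 to 0.3). The column of WT 1 is red for nearly every gene and those of WT 2 and WT 3 mostly blue, while Ndufa4l2 runs the other way in WT 1 and WT 2.

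Summed over the 38 genes, the level was 11762, 9728 and 9817 CPM in WT and 10225, 10814 and 10688 CPM in LSD1-mKO. The means were 10436 ± 1149 CPM (SD, n = 3) in WT and 10576 ± 310.1 CPM in LSD1-mKO, so LSD1-mKO was at 101% of WT. This value rests on WT 1: without it LSD1-mKO was at 108% of WT, with all LSD1-mKO mice above both remaining WT mice, while with library size alone and without WT 1 it was at 102% and the genotypes overlapped. Without WT 2 it was at 98.0% and without WT 3 at 98.4%. With all 6 mice, under DESeq2 size factors, upper quartile factors and library size alone it was at 102%, 101% and 100.2%. By place in the complex, LSD1-mKO ran from 99.9% of WT in the distal membrane arm to 103% in the NADH-oxidising core.

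The distance of WT 1 depended on the scaling. WT 1 was at 120% of the mean of WT 2 and 3 with TMM, 107% with library size alone and 106% in TPM. The TMM factor of WT 1 was 0.929, the lowest of the 6. Beside its high complex I level WT 1 had slow fiber genes at 125% in CPM and 107% in TPM, fast fiber genes at 138% and 119%, endothelial markers at 74.6% and 64.8%, fibroblast markers at 33.4% and 34.8% and leukocyte markers at 26.6% and 21.9% of the mean of WT 2 and 3, and none of the fibroblast or endothelial markers was at 0 in all mice. The part of cell content in the complex I level was not tested. Between the genotypes, 5 of 5 fibroblast markers had a fitted difference below 0, against 54.8% of all genes tested, but 0 had an unadjusted p under 0.05. The summed levels of the fibroblast markers overlapped, at 943 to 3054 CPM in WT and 1096 to 2033 CPM in LSD1-mKO. Leukocyte markers were below 0 for 4 of 4 and endothelial markers for 4 of 5, again with 0 at an unadjusted p under 0.05. Slow fiber genes were above 0 for 6 of 9 and fast fiber genes for 3 of 7, against 45.2% of all genes tested.

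**Figure D4:**
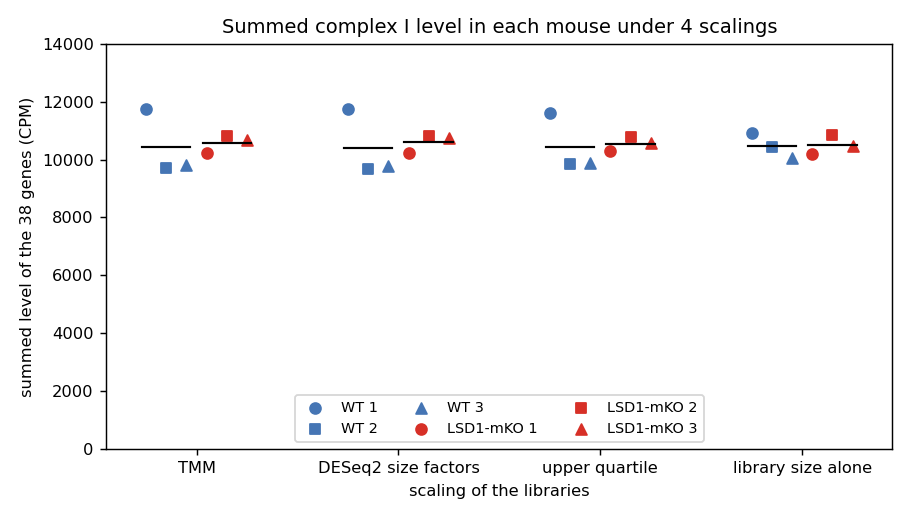
Summed CPM of the 38 genes in each mouse under 4 scalings of the libraries, with 1 point per mouse and a line at the mean of each genotype. WT 1 is the highest mouse under each scaling, less so with library size alone, and the LSD1-mKO mean lies at 100.2% to 102% of the WT mean.

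Expressed as a share of the summed complex I counts of the same mouse, most genes became steadier. The coefficient of variation over the 6 mice had a median of 7.60% for CPM and 4.18% for the share, and was lower for the share in 34 of the 38 genes. Ndufc2 and Ndufb9 were the steadiest and Ndufa4l2 (15.9%) the least steady. Among the shares, Ndufa3 alone did not overlap between the genotypes, at 1.32%, 1.34% and 1.32% in WT and 1.43%, 1.37% and 1.36% in LSD1-mKO. Under that scaling 4.93% of all genes tested were higher in LSD1-mKO without overlap.

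The other parts of the pathway showed a like picture. The 7 mitochondrially encoded core subunits have no row in the count table and were not analysed here. Of 18 listed assembly factors of complex I, 14 were tested, 11 were above 0 and 0 passed an adjusted p of 0.05, with a median of 0.03 on the log2 scale. Without WT 1, 13 were above 0, with a median of 0.08. The largest was Ndufaf4, which acts early in assembly, with 62.1, 48.8 and 52.5 CPM in WT and 66.7, 59.9 and 74.9 CPM in LSD1-mKO. WT 1 lay among the LSD1-mKO mice, and the log2 fold change of 0.30 (SE 0.12) had an unadjusted p of 0.0357 and an edgeR Benjamini-Hochberg adjusted p of 0.735.

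Of the nuclear-encoded subunits of the other complexes, 4 of 4 in complex II were above 0 (median 0.05), 4 of 9 in complex III (median -0.0048), 8 of 13 in complex IV (median 0.03) and 12 of 15 in complex V (median 0.0075), and 0 passed an adjusted p of 0.05. Cox6a1, the complex IV subunit isoform of non-muscle tissues, had 47.0, 45.2 and 45.8 CPM in WT and 39.7, 35.2 and 37.5 CPM in LSD1-mKO, with no overlap. Its log2 fold change was -0.29 (SE 0.08), with an unadjusted p of 0.0078 and an edgeR Benjamini-Hochberg adjusted p of 0.578. Without WT 1, 4 of 4, 9 of 9, 12 of 13 and 15 of 15 genes of complexes II, III, IV and V were above 0, with medians of 0.15, 0.11, 0.09 and 0.12, beside 0.11 for the complex I genes.

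Esrrg, the regulator that the study follows, had 147, 125 and 116 CPM in WT and 267, 208 and 282 CPM in LSD1-mKO. Every LSD1-mKO mouse was above every WT mouse, with a log2 fold change of 0.96 (SE 0.14) and an edgeR Benjamini-Hochberg adjusted p of 0.162, which did not pass the threshold. The complex I genes in the same mice had fitted differences of at most 0.13 on this scale. For Esrrg the study itself reports a significant rise in LSD1-mKO Sol after VWR, by RNA sequencing and by quantitative RT-PCR. It also reports more ERRγ protein there. For its cluster of genes higher in LSD1-mKO, the study lists oxidative phosphorylation among the enriched terms and finds the ERRγ motif enriched. By quantitative RT-PCR it reports ERRγ target genes higher in LSD1-mKO Sol, and it describes stronger succinate dehydrogenase staining. Those results rest on other genes, measures and thresholds than the values given here.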

How the data were processed

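Poly(A) RNA of Sol from 3 WT and 3 LSD1-mKO mice was sequenced from 1 end (75 bases). The authors used STAR and mm10 for alignment. The deposited values are estimated counts per gene without any scaling, in 1 column per mouse, with totals of 8940206 to 13798059. The counting tool and its annotation are not given in the sources used here. Under 10% of the values in each library are not whole, and all were rounded. A DESeq2 table of the authors' own fold changes and p-values was not used. No pair of libraries was alike within sampling noise (lowest chi-square per gene 7.69).

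Genes kept by filterByExpr were TMM-scaled and compared with edgeR 4.0.16 (quasi-likelihood test, R 4.3.3). The p-values of the 12828 tested genes were adjusted by the Benjamini-Hochberg method and called at 0.05. SEs were the log2 fold change divided by the square root of F, and 95% intervals used the fit's total degrees of freedom. DESeq2 1.42.0 and limma 3.58.1 (voom), other scalings and filters, the replicate number as a block and each mouse left out in turn were alternatives. The scripts were tested on simulated data. Exact permutation tests of CPM have a smallest p of 0.1. TPM used GENCODE vM21 (23353 symbols matched directly, 677 by older symbols, 381 without length), and promoter sequences came from RefSeq.

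The members and lists were chosen with earlier results of these data known. The values of 1 gene entered the fits and counts but are not reported here. Genes named are nuclear core subunits, the study's cluster members, the 5 smallest unadjusted p-values, Ndufa4 and Ndufa4l2. The other genes appear as ranges, levels or examples, among them Ndufaf4 and Cox6a1, chosen for their unadjusted p-values after these were seen.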

Additional observations from a re-analysis of the deposited data

How the results depend on the processing

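The count of 0 complex I genes past an adjusted p of 0.05 held under DESeq2, voom, 3 other scalings, 2 other filters, the replicate block, each mouse left out and, chosen after seeing the data, the summed complex I counts as library size. With 1 mouse left out, genes higher in LSD1-mKO ranged from 15 to 35, genes at an unadjusted p under 0.05 from 0 to 1, genes without overlap from 2 to 25, the median log2 fold change from -0.02 to 0.11, and the summed level in LSD1-mKO (added after seeing the data) from 98.0% to 108% of WT. With the summed complex I counts as library size, 1 gene did not overlap. The order of TPM by longest transcript correlated (Spearman) at 0.81 with that by median length and at 0.892 with that by principal transcript.

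Over 225 comparisons of 15 named genes, 208 kept direction and call and 17 changed direction, 11 of them with 1 mouse left out; the cause was not tested. In those fits the log2 fold changes ran from -0.109 to 0.0804 for Ndufv1, -0.119 to 0.114 for Ndufs3, -0.14 to 0.0604 for Ndufs7, -0.0177 to 0.141 for Ndufs8, -0.0689 to 0.0946 for Ndufa4 and -0.0847 to 0.137 for Ndufa4l2. Ndufa4l2 was at -0.0062 with upper quartile factors, -0.0309 with library size alone, -0.0011 with at least 10 counts in every sample and -0.0398 with summed complex I counts. Ndufa4 was at -0.0090 with library size alone and -0.0137 with summed complex I counts.

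Replicate numbers did not pair the mice: same-numbered mice correlated at -0.352, -0.107 and -0.15. With the replicate block, 28 complex I genes were above 0, with a median of 0.03, and 0 passed. Over all genes, DESeq2 called 33 higher and 9 lower, against 1 and 1 in edgeR, 2 and 1 in voom, 8 and 3 with no filter, and 1 and 0 with the replicate block.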
